A study of Mus musculus with 10 samples.

Results

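Nascent transcription of 7 mouse genes that write, maintain or remove DNA methylation was followed in duodenal organoids: the methyltransferases Dnmt1, Dnmt3a and Dnmt3b, the maintenance factor Uhrf1, and the dioxygenases Tet1, Tet2 and Tet3. They were chosen by name, and all 7 were found among the 24016 gene symbols of the transcription table, as 24 transcript entries with 12 different start sites. The series holds 10 samples. Of these, 4 are global run-on sequencing (GRO-seq) libraries, which capture RNA that polymerases are in the act of making, with 2 libraries for each of 2 media. A further 2 are ChIP-seq libraries for trimethylated lysine 27 of histone H3 (H3K27me3), the repressive mark of Polycomb complexes, with 1 library per medium, and the histone H3 and input samples were not analysed here.

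All libraries came from small intestinal (duodenal) organoids grown in Matrigel with EGF, Noggin and R-spondin. WENRC, the stem cell medium, also held Wnt3A and the GSK3 inhibitor CHIR-99021. ENRI, the enterocyte differentiation medium, lacked both and held IWP-2, which blocks Wnt secretion. The labels name the cells as intestinal stem cells in WENRC and as enterocytes in ENRI. They number mice 1 and 2 in each medium. Strain, genotype and age are not given in the sources used here, and a table column could be tied to its medium and to batch 1 or 2 of the file header but not to a mouse. Organoid cells were not sorted, and in such bulk samples fewer cells of a type and less RNA per cell cannot be told apart.

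DNMT1 copies methylation onto the new strand after DNA replication, and UHRF1 recognises the half-methylated DNA and brings DNMT1 to it. DNMT3A and DNMT3B add methylation at sites that lacked it. TET enzymes oxidise 5-methylcytosine, using 2-oxoglutarate, which starts its removal. In the intestine, DNMT1 is known for its role in dividing crypt cells, while TET-made 5-hydroxymethylcytosine is known to be abundant in differentiated villus cells.

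The organoids carried the marker signal of their labels. The 5 stem cell markers (Lgr5, Ascl2, Olfm4, Smoc2, Axin2) summed to 16.9 and 22.4 RPKM (reads per kb of transcript, scaled to library size) in WENRC and to 1.69 and 2.27 RPKM in ENRI. The 6 enterocyte markers (Alpi, Apoa1, Apoa4, Fabp1, Krt20, Sis) summed to 36.1 and 12.4 RPKM in WENRC and to 533 and 719 RPKM in ENRI. Of the markers of other cells, only Acta2 of 6 mesenchymal, Cd68 of 6 immune and none of 4 endothelial genes reached the filter for testing, which was 0.5 RPKM in at least 2 libraries. The immune sum was nearly all Cd68, a lysosomal gene. Csf1r was under the filter, at 0.243 to 0.482 RPKM over both media. Ptprc, which marks all leukocytes, was at most 0.0406 RPKM. Cd3e, a T cell gene, was at most 0.0399 RPKM in WENRC and at 0 in both ENRI libraries. The summed levels were 0.993 to 1.49 RPKM in WENRC and 0.822 to 0.923 RPKM in ENRI for mesenchymal genes, 13.6 to 17.1 and 5.75 to 5.80 RPKM for immune genes, and at most 0.0972 RPKM for endothelial genes. Libraries held 25839486 (WENRC) and 29128099 (ENRI) transcript reads in batch 1 and 9245914 and 15787828 in batch 2, so values of batch 2 rest on fewer reads.

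The regulatory sequence just before the starts is shown first, because the start sites of Dnmt1 and Uhrf1 differ in base composition. The signal of a single start was not measured. Each line is the reference sequence (RefSeq, GRCm38.p6) of the 250 bases before a start, 5′ to 3′ on the gene's strand, with CpG dinucleotides, the target of these enzymes, in capitals. The sequence is the reference and was not read from these libraries. The transcription files use build mm9, in which the start sites of each member have the same number and spacing as in GRCm38.p6. Dnmt1 has a far upstream start and a pair of starts close together downstream, and Uhrf1 has an outer and an inner start.
Dnmt1, far upstream start, chr9:20959889-20960138, minus strand: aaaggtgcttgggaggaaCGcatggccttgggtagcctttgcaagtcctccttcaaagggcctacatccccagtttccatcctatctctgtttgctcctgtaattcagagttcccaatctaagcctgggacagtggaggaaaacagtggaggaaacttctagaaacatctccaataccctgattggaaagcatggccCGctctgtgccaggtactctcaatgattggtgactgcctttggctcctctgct
Dnmt1, outer start of the downstream pair, chr9:20952980-20953229, minus strand: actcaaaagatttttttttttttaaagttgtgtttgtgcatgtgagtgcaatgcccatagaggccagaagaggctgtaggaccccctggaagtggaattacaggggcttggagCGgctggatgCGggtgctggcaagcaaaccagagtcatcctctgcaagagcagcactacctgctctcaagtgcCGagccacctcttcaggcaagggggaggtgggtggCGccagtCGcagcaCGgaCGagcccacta
Uhrf1, outer start, chr17:56303087-56303336, plus strand: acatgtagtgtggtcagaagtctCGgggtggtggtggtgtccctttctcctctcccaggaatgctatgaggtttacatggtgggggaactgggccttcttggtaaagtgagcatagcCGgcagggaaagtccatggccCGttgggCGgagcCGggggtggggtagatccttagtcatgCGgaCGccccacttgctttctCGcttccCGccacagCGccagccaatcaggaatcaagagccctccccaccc
Tet1, only listed start, chr10:62887325-62887574, minus strand: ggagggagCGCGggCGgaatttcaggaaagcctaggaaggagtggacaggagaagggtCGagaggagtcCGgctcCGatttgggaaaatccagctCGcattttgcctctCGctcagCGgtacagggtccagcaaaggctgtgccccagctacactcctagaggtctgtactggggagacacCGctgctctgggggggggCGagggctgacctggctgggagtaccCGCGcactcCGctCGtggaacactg
Tet3, only listed start, chr6:83441679-83441928, minus strand: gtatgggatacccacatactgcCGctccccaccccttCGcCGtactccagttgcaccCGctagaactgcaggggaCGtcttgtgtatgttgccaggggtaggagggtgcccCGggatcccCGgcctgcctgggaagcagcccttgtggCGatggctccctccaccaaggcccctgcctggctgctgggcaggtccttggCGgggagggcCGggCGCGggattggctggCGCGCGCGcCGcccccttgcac

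These windows run from CpG-poor to CpG-rich. The far upstream Dnmt1 window holds 2 CpGs, a ratio of observed to expected CpG of 0.126, and the outer window of the downstream pair holds 7 (0.38). The Uhrf1 outer window holds 10 (0.453), Tet3 17 (0.562) and Tet1 15 (0.63). Over all 32851 RefSeq windows of this length the median was 6 CpGs and a ratio of 0.373.

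The windows not printed in full were mostly richer. The innermost Dnmt1 window holds 26 CpGs (ratio 0.89), the inner Uhrf1 window 30 (1.00) and the Tet2 window 51 (1.19). For Dnmt3a, the windows of the 2 long-transcript starts hold 38 and 40 CpGs (0.938 and 1.09), and that of the internal start 15 (0.459). The Dnmt3b window holds 21 (0.608). CpG content describes the sequence and is not a measurement of methylation, which was not measured in these files.

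A search for 4 letter strings of E2F sites (TTTGGCGC, TTTGCCGC, TTTCGCGC and TTTCCCGC, either strand), which belong to a family of factors known for S-phase genes, found a match in 2 of the 12 member windows and in 1.86% of all windows. Both matches, shown because they fall in the maintenance genes, are the same string, here in capitals within 30 bases of reference sequence. In Dnmt1 the match starts 219 bases before the innermost start and reads as the reverse complement, and in Uhrf1 it starts 185 bases before the inner start. A match is a description of letters and not a measured site. All 4 strings contain a CpG, and the 2 matching windows hold 26 and 30 CpGs, against a median of 6 over all windows. The share of 1.86% is therefore not one for windows of like CpG content, which was not taken.
Dnmt1, chr9:20952824-20952853, minus strand: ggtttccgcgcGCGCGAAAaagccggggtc
Uhrf1, chr17:56304117-56304146, plus strand: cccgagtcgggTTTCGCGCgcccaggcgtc

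Dnmt1 and Uhrf1, the maintenance pair, had the largest differences between the media. Dnmt1 is at chr9:20711650-20764332 (mm9, longest transcript NM_001199432). Its level was 1.62 and 1.49 RPKM in the WENRC libraries of batches 1 and 2, and 0.637 and 0.427 RPKM in the ENRI libraries. Both ENRI values were below both WENRC values, and the gap was several times the spread within either medium (1.55 ± 0.0928 against 0.532 ± 0.149 RPKM, mean ± SD, n = 2). Of the tested genes, 49.7% were likewise lower in both ENRI libraries than in both WENRC libraries. From reads, ENRI was at 0.394 of WENRC in batch 1 (exact 95% interval 0.365 to 0.425) and at 0.281 in batch 2 (0.247 to 0.319). These intervals cover counting error only.

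The partner Uhrf1 (chr17:56442760-56462909, NM_001111079) showed the largest difference of the 7. It stood at 2.40 and 2.30 RPKM in WENRC and at 0.711 and 0.516 RPKM in ENRI. The groups did not overlap, as for the 49.7% of tested genes that were lower in this way. The levels were 2.35 ± 0.0680 RPKM in WENRC against 0.613 ± 0.138 RPKM in ENRI (mean ± SD, n = 2). ENRI was at 0.296 of WENRC in batch 1 (0.265 to 0.331) and at 0.219 in batch 2 (0.182 to 0.263).

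In the limma fit over 11602 genes on log2(RPKM + 0.5), a scale that understates the change of low genes, neither passed an adjusted p of 0.05. The log2 difference, ENRI minus WENRC, was -1.00 ± 0.15 for Dnmt1 (SE, 95% interval -1.41 to -0.59, limma adjusted p = 0.0560) and -1.36 ± 0.14 for Uhrf1 (-1.75 to -0.98, limma adjusted p = 0.0560). None of the 5 tested members passed, against 0.147% of all genes tested. At an unadjusted p under 0.05, limma counted 3 of the 5, all lower in ENRI, against 26.9% of all genes lower. With the batch as a block it counted 2, with Dnmt3a at an unadjusted limma p of 0.0807.

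Tests on the reads themselves did call the maintenance pair. Dnmt1 and Uhrf1 were 2 of 5 members called by edgeR's quasi-likelihood test, both lower, against 2.84% of all genes called lower. The adjusted p of that edgeR test was 0.0445 for Dnmt1 and 0.0424 for Uhrf1. With the batch as a block, edgeR called the same pair, against 2.72% of all genes lower. With DESeq2 the adjusted p was 2.92e-04 and 5.80e-07, where 8.89% of all genes were called lower. In the authors' deposited table, 8 of the 24 member entries had an FDR under 0.05, all lower in ENRI and all of them of Dnmt1 or Uhrf1, against 3.16% of all entries. The entries of each of these 2 genes share most or all of their reads, so the 8 are not separate results. On the log2 scale, the authors' deposited table gives -1.33 to -1.31 for Dnmt1 and -1.71 to -1.69 for Uhrf1.

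**Figure D1:**
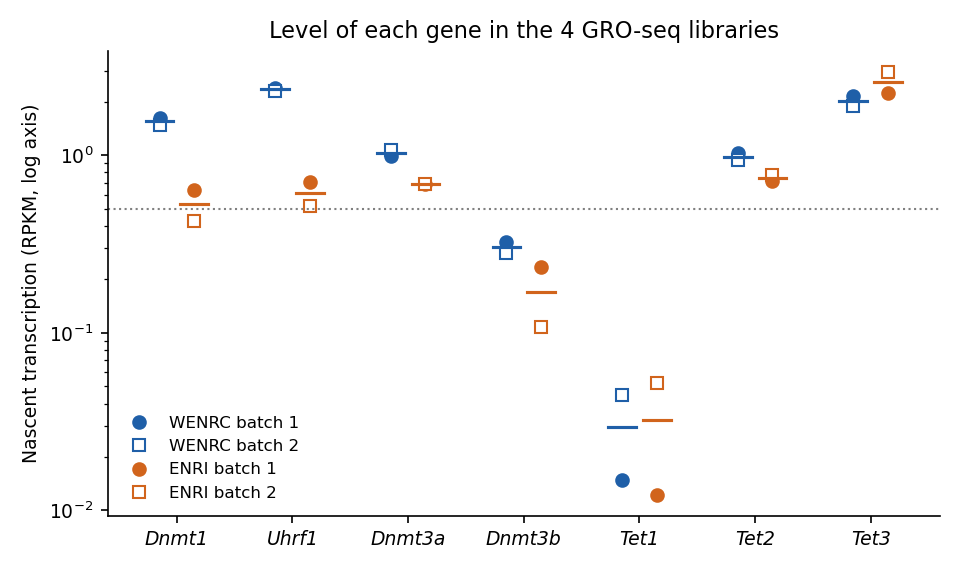
Nascent transcription of the 7 genes in RPKM, per library, with 2 WENRC and 2 ENRI libraries (circles batch 1, squares batch 2; short lines are the means of the 2). Uhrf1 and Dnmt1 sit apart between the media, at 2.35 against 0.613 and 1.55 against 0.532 RPKM on average, while Tet1 is near 0 in all 4 libraries.

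Among the methyltransferases that add new methylation, Dnmt3a (chr12:3806980-3914443, NM_007872) was transcribed in all libraries. It stood at 0.993 and 1.07 RPKM in WENRC and at 0.692 and 0.693 RPKM in ENRI. The ENRI libraries were nearly equal and lay below both WENRC libraries, as for 49.7% of tested genes. The log2 difference of -0.36 ± 0.11 (SE, 95% interval -0.66 to -0.06) did not pass (limma adjusted p = 0.0977).

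The difference of Dnmt3a was smaller than that of its maintenance counterpart, at 0.697 of WENRC in batch 1 (exact 95% interval 0.659 to 0.738) and 0.634 in batch 2 (0.583 to 0.689). Neither count test called it, and its FDR in the authors' deposited table was 0.688 to 0.801. Under quantile normalization, which moved the median log2 difference of all genes from -0.21 to -0.04, its difference was -0.14. That of Dnmt1 and Uhrf1 stayed lower in ENRI under that scaling and passed (limma adjusted p 0.0436 and 0.0392, among 3.64% of genes called lower).

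Dnmt3b (chr2:153475185-153513466, NM_001003960), the other enzyme of this kind, was low and stayed under the filter. Its 9 transcript entries have the same ends and so the same reads. It had 0.326 and 0.283 RPKM in WENRC (322 and 100 reads) and 0.234 and 0.108 RPKM in ENRI (261 and 65 reads). Both ENRI values were below both WENRC values, as for 33.4% of all genes in the table, and no test was made in the limma fit. By reads, ENRI was at 0.719 of WENRC in batch 1 (0.609 to 0.850) and at 0.372 in batch 2 (0.268 to 0.514), intervals that do not overlap.

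Of the TET dioxygenases, Tet3 (chr6:83312368-83391672, NM_183138) had the highest level. It stood at 2.15 and 1.90 RPKM in WENRC and at 2.24 and 2.95 RPKM in ENRI. Both ENRI libraries were above both WENRC libraries, as for 23.0% of tested genes, but the lowest ENRI value was close to the highest WENRC value. The log2 difference of 0.29 ± 0.18 (SE, 95% interval -0.20 to 0.77) did not pass (limma adjusted p = 0.290). Fits on reads gave larger values that did not pass either, 0.61 with edgeR (adjusted p = 0.154) and 0.64 with DESeq2 (adjusted p = 0.113), and the authors' deposited table gives 0.59 (FDR 0.447). The limma value was 0.12 without the ENRI library of batch 2 and 0.45 without that of batch 1.

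The excess of Tet3 lay mainly in batch 2. Reads in ENRI were 1.05 times those in WENRC in batch 1 (1.00 to 1.09) and 1.52 times in batch 2 (1.42 to 1.61). The within-batch log2 differences were 0.05 and 0.52. With 1 library per medium in a batch, these values have no replicate check.

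Tet2 (chr3:133126641-133207354, NM_001040400) lay in the other direction from Tet3. It had 1.02 and 0.938 RPKM in WENRC and 0.718 and 0.775 RPKM in ENRI, lower without overlap as for 49.7% of tested genes. The log2 difference was -0.25 ± 0.12 (SE, 95% interval -0.56 to 0.06, limma adjusted p = 0.185), close to the median of -0.21 over all genes tested, and under quantile normalization it was -0.03.

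Tet1 (chr10:62267318-62342762, NM_001253857), best known from pluripotent and germ cells, was barely transcribed. It had 0.0149 and 0.0444 RPKM in WENRC and 0.0123 and 0.0521 RPKM in ENRI, from 27 to 62 reads over 75444 bp. The groups overlapped, and the libraries of batch 2 were higher than those of batch 1 in both media. The read ratio was 0.826 (0.471 to 1.45) in batch 1 and 1.15 (0.733 to 1.82) in batch 2, so no difference between the media was detectable at this depth.

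**Figure D2:**
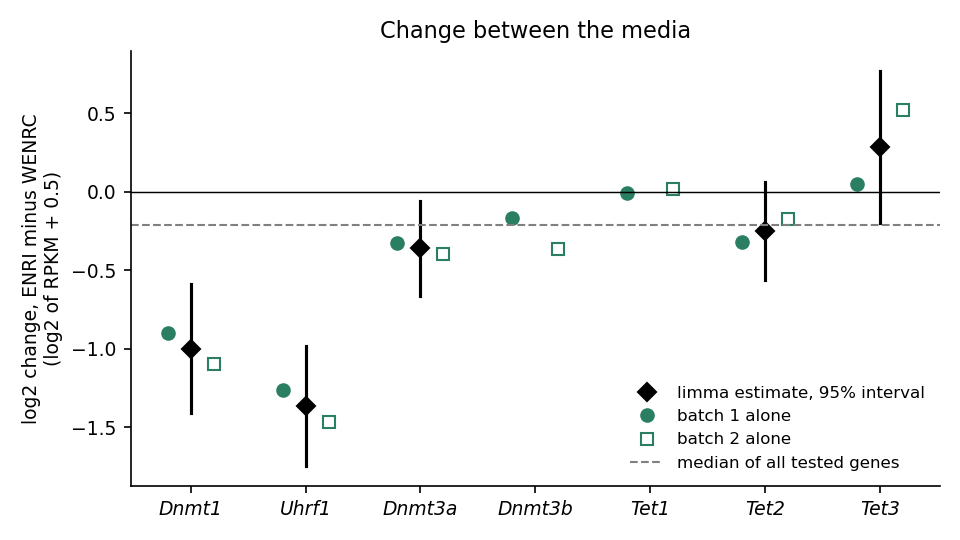
Log2 difference of each gene, ENRI minus WENRC, on log2(RPKM + 0.5); diamonds are limma estimates with 95% intervals over 4 libraries, and the smaller marks are the differences within batch 1 and batch 2. The intervals of Uhrf1, Dnmt1 and Dnmt3a lie below 0, those of Tet2 and Tet3 include 0, and Dnmt3b and Tet1 have no estimate because they were under the filter.

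The order of the levels differed between the media. In WENRC it ran Uhrf1, Tet3, Dnmt1, then Dnmt3a and Tet2, whose ranges overlapped, then Dnmt3b and Tet1. In ENRI it ran Tet3 and then, much lower, Tet2, Dnmt3a, Uhrf1 and Dnmt1. There the range of Uhrf1 overlapped those of Dnmt3a and Dnmt1. Within libraries, Uhrf1 was above Dnmt3a in ENRI batch 1 and below it in ENRI batch 2. Uhrf1 was at 1.11 and 1.21 times Dnmt1 in these libraries, and the order of these neighbours was not tested. Dnmt3b was sixth and Tet1 seventh in all 4 libraries. These levels are of the longest transcripts, and that of Dnmt1 includes a far upstream segment with little signal (below). From the outer start of the downstream pair, Dnmt1 had 0.723 and 0.484 RPKM in ENRI. In batch 1 that was above Tet2, Dnmt3a and Uhrf1, and in batch 2 below them. The place of Dnmt1 in ENRI thus depends on the transcript used.

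As a share of the summed RPKM of the 7 genes, Tet3 made up 24.5 ± 1.06% in WENRC and 48.1 ± 7.54% in ENRI (mean ± SD, n = 2). The sum itself was lower in ENRI, at 5.25 and 5.52 RPKM against 8.52 and 8.03 RPKM in WENRC, so a share can be higher without a higher level. The share of Uhrf1 was 28.4 ± 0.377% and 11.4 ± 2.97%, and that of Dnmt1 18.8 ± 0.331% and 9.94 ± 3.12%. Dnmt3a and Tet2 held steadier shares, at 12.5 ± 1.19% and 11.8 ± 0.229% in WENRC and 12.9 ± 0.437% and 13.9 ± 0.261% in ENRI. Tet3 was at 1.33 and 1.28 times the level of Dnmt1 in the WENRC libraries and at 3.52 and 6.91 times in the ENRI libraries, and these ranges do not overlap. The shares of Dnmt1 and these ratios use its longest transcript, whose level is lowered by the upstream segment. With 2 libraries a medium, an exact two-sided permutation test of such a ratio cannot go below p = 0.333, so no test of it was made.

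Within each batch, 4 of the 5 tested members were lower in ENRI and Tet3 was higher. Over the 4 libraries, 65.7% of all tested genes were lower in ENRI. The log2 differences in batches 1 and 2 were -0.90 and -1.10 for Dnmt1, -1.26 and -1.46 for Uhrf1, -0.32 and -0.40 for Dnmt3a and -0.32 and -0.17 for Tet2. The median of the 5 was -0.36, beside -0.21 over all tested genes.

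**Figure D3:**
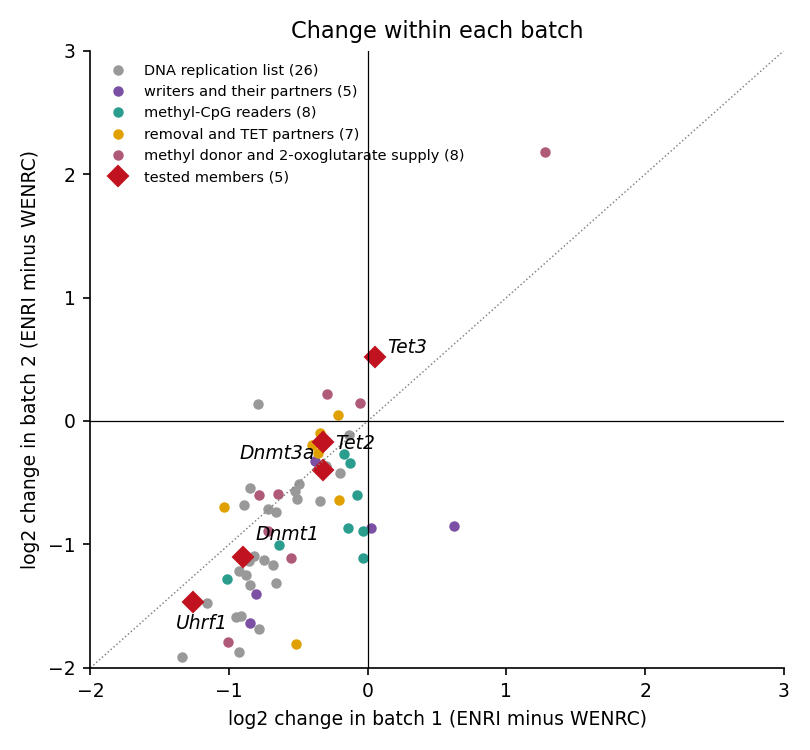
Log2 difference between the media (ENRI minus WENRC, log2 of RPKM + 0.5) in batch 1 (x axis) against batch 2 (y axis) for the members and the other listed genes; the dotted line marks equal differences. Uhrf1 and Dnmt1 lie near that line at -1.26 and -1.46 and at -0.90 and -1.10, while Tet3 lies above it at 0.05 and 0.52.

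The start sites of 3 members allowed reads to be assigned to segments, by subtracting the reads of a shorter transcript entry from those of a longer one. The far upstream segment of Dnmt1, with the CpG-poor start, carried little signal. Its 6909 bp (chr9:20757423-20764332, mm9) had 60 and 11 reads in WENRC and 14 and 5 in ENRI, or 0.336, 0.172, 0.0696 and 0.0458 RPKM. That was between 0.0939 and 0.187 of the level over the body from the innermost start in each library. The body itself (45417 bp) had 1.80 and 1.69 RPKM in WENRC and 0.720 and 0.488 RPKM in ENRI, so the difference of Dnmt1 rests mainly on reads downstream of the CpG-rich innermost start.

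In Uhrf1, the 976 bp between the outer and inner starts (chr17:56442760-56443736, mm9) were read more densely than the body. They had 5.59 and 4.32 RPKM in WENRC and 1.13 and 1.10 RPKM in ENRI, from 17 to 141 reads. Signal there was 2.50 and 1.96 times the body level in WENRC and 1.63 and 2.27 times in ENRI, and those ranges overlap. ENRI was at 0.201 of WENRC in batch 1 (exact 95% interval 0.133 to 0.297) and 0.250 in batch 2 (0.132 to 0.452) in this segment, and at 0.308 (0.274 to 0.347) and 0.216 (0.177 to 0.262) in the body. The lower signal in ENRI was thus present near the start as well as along the gene. The strand setting of the counting is not given, so the signal before the inner start cannot be assigned to the strand of Uhrf1.

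Dnmt3a makes a long protein from its outer starts and a shorter one from an internal start. The 84584 bp found only in the long transcripts had 0.927 and 1.00 RPKM in WENRC and 0.647 and 0.632 RPKM in ENRI. The 22699 bp from the internal start onward had 1.24 and 1.32 RPKM in WENRC and 0.858 and 0.926 RPKM in ENRI. Read ratios of ENRI over WENRC were 0.699 and 0.617 in the first segment and 0.691 and 0.684 in the second. Their 95% intervals overlapped within each batch, so the segments did not differ beyond counting error.

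Reads of overlapping genes were a small part of these counts. The antisense transcript Dnmt3aos held at most 1.76% of the reads of Dnmt3a, and Mir7081 and Mir6374 at most 0.363% of Dnmt1 and 0.215% of Tet3. The strand setting of the authors' counting is not given in the sources used here, so reads of Dnmt3a and its antisense partner cannot be told apart.

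**Figure D4:**
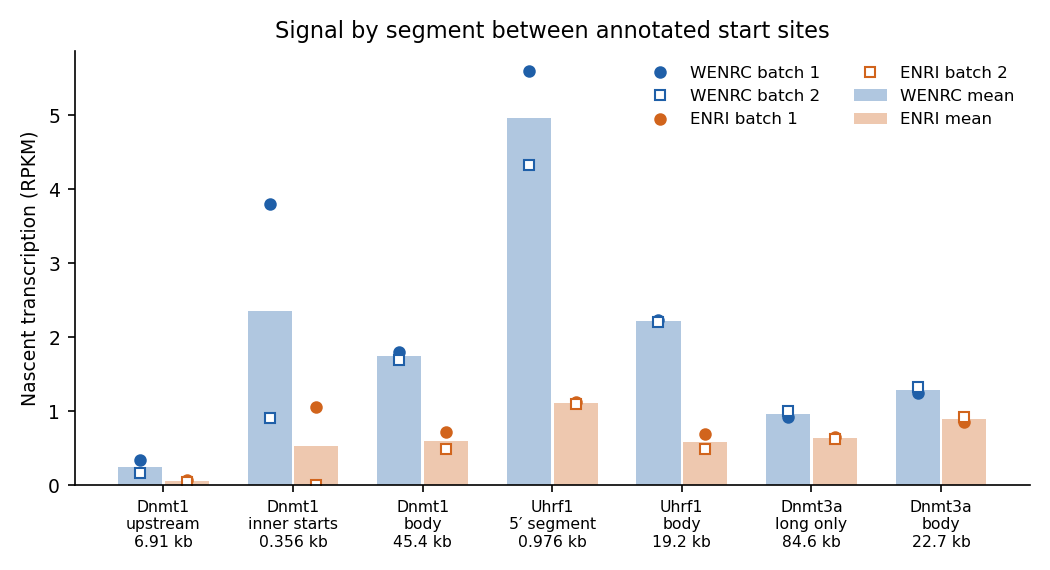
Nascent transcription (RPKM) of segments between annotated start sites of Dnmt1, Uhrf1 and Dnmt3a, with segment lengths in kb; bars are means of 2 libraries per medium and marks are the libraries. The upstream Dnmt1 segment stays at or under 0.336 RPKM, the Uhrf1 segment near the start exceeds its body in every library, and the inner Dnmt1 segment rests on 0 to 35 reads.

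None of the 12 start sites of the 7 genes had an H3K27me3 region within 2 kb, in either medium. In the broad region lists, 10.5% of all genes had one at the start of their longest transcript in WENRC and 8.76% in ENRI. The narrow lists also gave none of the 12, beside 17.8% and 19.6% of genes. There is 1 ChIP library per medium and the deposited lists were called separately, with 5009 broad regions in WENRC and 6094 in ENRI, and 33499 and 55544 narrow ones, so no difference between the media was tested.

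The barely transcribed Tet1 gene had the closest broad region. In ENRI it lay 4865 bp upstream of the Tet1 start (chr10:62347627-62350180, mm9), with 5.23-fold enrichment over input by the authors and a score of 34 tags in its best window, just above the calling threshold of 32 tags. In WENRC the nearest broad region was 151331 bp away, but a narrow WENRC region 6971 bp upstream (4.18-fold) overlapped the broad ENRI region. The narrow lists also held a region inside the Tet1 gene in each medium (4.19-fold in ENRI and 4.18-fold in WENRC). No other member had a region inside its transcribed body. With a promoter of 5 kb either side, Tet1 in ENRI was the 1 member with a broad region, where 10.4% of genes had one in ENRI and 11.8% in WENRC.

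Of the other members with low signal, Dnmt3b had narrow regions 5896 bp upstream in WENRC (4.01-fold) and 5265 bp upstream in ENRI (4.78-fold). Each had a score of 17 tags, against a threshold of 17 in WENRC and 16 in ENRI. For Dnmt3a a narrow region lay 3093 bp upstream in ENRI (5.46-fold), with a score of 17 tags against a threshold of 16. The maintenance genes were far from any broad region. The nearest to Uhrf1 was 146273 bp away in WENRC and 167721 bp in ENRI, and the nearest to Dnmt1 lay 71938 and 72045 bp upstream of its far upstream start. For Tet3 the distances were 138462 bp in WENRC and 207306 bp in ENRI, and for Tet2 592693 and 594049 bp.

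**Figure D5:**
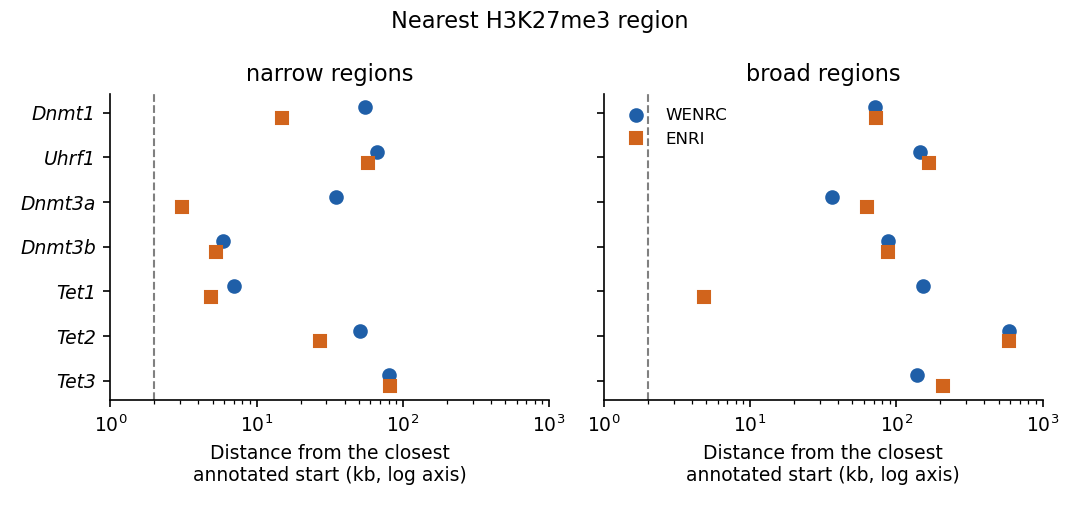
Distance in kb (log axis) from the closest annotated start of each gene to the nearest H3K27me3 region in the broad and the narrow lists, in WENRC and ENRI, with 1 library per medium; the dashed line marks 2 kb. All marks lie beyond the line, with the closest broad region 4.865 kb from Tet1 and the closest narrow region 3.093 kb from Dnmt3a, both in ENRI.

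None of the other listed genes of the methylation machinery passed the limma threshold. Their log2 differences are read against all tested genes, of which 65.7% were below 0, with a median of -0.21. That share was 53.9% under quantile normalization and 50.2% with DESeq2. Among 8 writers and their partners, 5 were tested and all 5 had log2 differences below 0, with a median of -0.42, or -0.27 under quantile normalization. Only 3 of the 5 were lower in both batches, and the medians were -0.38 in batch 1 and -0.87 in batch 2. At an unadjusted limma p under 0.05 there were 2, beside 26.9% of all genes lower. DESeq2 called 2 of them lower, beside 8.89% of all genes, and edgeR none. Trim28, a corepressor that brings silencing to KRAB zinc finger targets, had -1.24 ± 0.29, and Hells, a chromatin remodeller needed for DNA methylation, had -1.11 ± 0.21 (log2, SE). Uhrf2, the paralog of Uhrf1, had -0.42 (0.02 in batch 1 and -0.87 in batch 2), and the deubiquitinase Usp7, which stabilises UHRF1 and DNMT1, had -0.35.

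All 8 listed genes of the methyl-CpG reader families were tested and had log2 differences below 0. Their median was -0.48, or -0.29 under quantile normalization. The 2 of 8 at an unadjusted limma p under 0.05 are near the background of 26.9%. Medians within batches were -0.14 in batch 1 and -0.88 in batch 2, so their size differed between batches. Mbd3, a subunit of the NuRD complex, had -1.15 ± 0.18, and Mbd4, a thymine glycosylase that repairs deaminated methylcytosine, had -0.82 ± 0.16 (log2, SE). Zbtb4 and Zbtb38, zinc finger proteins that bind methylated DNA, had -0.57 and -0.50. DESeq2 and edgeR each called 2 of the 8 lower, beside 8.89% and 2.84% of all genes, and edgeR with the batch as a block called none.

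Of 9 genes for the removal of oxidised methylcytosine and TET partners, 7 were tested, and all 7 had log2 differences below 0 (median -0.31), 6 of them in both batches. None was called by limma, edgeR or DESeq2, and the 2 of 7 at an unadjusted limma p under 0.05 are near the background of 26.9%. Gadd45b and Gadd45a, stress-response genes linked to demethylation, had -1.16 ± 0.35 and -0.86 ± 0.25, and Gadd45g had -0.42 (log2, SE). Tdg, the glycosylase that excises the bases TET enzymes make, had -0.31.

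The genes that supply the methyl donor and 2-oxoglutarate differed in direction. Of the 8, 2 had log2 differences above 0 and 6 below 0 (median -0.65), with none called by limma. At an unadjusted limma p under 0.05 there were 6, of which 5 were lower, beside 26.9% of all genes lower. Idh1, the cytosolic and peroxisomal isocitrate dehydrogenase that makes 2-oxoglutarate, stood at 2.28 and 1.81 RPKM in WENRC and at 6.24 and 9.93 RPKM in ENRI. Its log2 difference was 1.73 ± 0.28, and it was called higher by edgeR (adjusted p = 0.0424) and DESeq2 (adjusted p = 4.65e-08), though not by limma. Of 11602 genes, edgeR called 650 higher and DESeq2 1707. The mitochondrial subunit Idh3b had -1.40 ± 0.29 and the mitochondrial Idh2 had -0.80. DESeq2 called both lower (adjusted p = 0.00320 and 0.0136), beside 8.89% of all genes, and edgeR called neither. Mat2a, which makes S-adenosylmethionine, the methyl donor, had -0.83.

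DNA replication genes, with which maintenance methylation is coupled, had log2 differences below 0 for all 26 tested of 28. The median log2 difference was -0.93, at -0.79 in batch 1 and -1.11 in batch 2. At an unadjusted limma p under 0.05 there were 23 of 26, against 26.9% of all genes lower, but none passed the limma adjusted threshold. DESeq2 called 17 lower (8.89% of all genes), edgeR 2 (2.84%), and edgeR with the batch as a block 9 (2.72%). The median was -0.69 under quantile normalization.

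The largest differences were in Rrm2, a ribonucleotide reductase subunit (-1.63 ± 0.29), the clamp loader subunit Rfc4 (-1.40), the proliferation marker Mki67 (-1.32 ± 0.22) and thymidylate synthase, Tyms (-1.27). Of the 26 genes, 25 were lower in ENRI within both batches. The exception, named after its values were seen, was the clamp Pcna, at 7.99 and 9.39 RPKM in WENRC and 4.40 and 10.4 RPKM in ENRI. The summed level of the 28 genes was 69.0 and 70.2 RPKM in WENRC and 34.2 and 31.6 RPKM in ENRI. The stem cell marker sum was also lower and the enterocyte marker sum higher in ENRI, as given above. The immune and mesenchymal sums were lower in ENRI too. The part of cell division and of cell type in the lower Dnmt1 and Uhrf1 signal was not tested.

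The genes whose profiles over the 4 libraries lay closest to each tested member, among 10340 protein coding genes, are a description with no test. Distances are Euclidean, on log2(RPKM + 0.5) centred on each gene's mean. For Dnmt1 they were Mybl2 (0.0477), a transcription factor of the cell cycle, Cdk4 (0.0541), a cyclin-dependent kinase, and Rangap1 (0.0559), the Ran GTPase activator. For Uhrf1 they were Rps9 (0.0497), Hist1h2ah (0.0722) and Crtap (0.0735). Dnmt3a was closest to Kmt2b (0.00635), a histone methyltransferase, then Usp20 and Tbpl1. Tet2 was closest to Primpol (0.0208), a primase and polymerase, then Inpp5a and Mroh1, and Tet3 to Cnst (0.0169), Lypla1 and Tmem143.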

How the data were processed

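The deposited GRO-seq signal is a scaled read number for each RefSeq transcript of build mm9. HOMER was used by the authors for counting over gene bodies and edgeR for comparing the media, batch being a term, per the file headers. The submitters' processing notes name FastQC, Bowtie, Bowtie2 and HOMER 4.3. Reads were recovered by dividing by each column's step, and 100% of the values tested, those under 100, came out whole within 0.1. The 4 deposited RPKM columns were not used. Log2 fold changes and p-values (FDR) of the authors' deposited table are quoted as such. H3K27me3 regions, their score (tags in the best window) and their fold (the ratio over input) are the authors', called per library with HOMER against input at 4-fold enrichment, per the file headers.

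RPKM was computed from the scaled reads over each column's total, for the longest transcript of each symbol. The filter of 0.5 RPKM or more in 2 or more libraries left 11602 genes, which entered limma 3.58.1 (R 4.3.3, mean trend, no block) on log2 values with a pseudocount of 0.5, at a Benjamini-Hochberg adjusted p of 0.05. Scripts were tested on simulated data. Alternatives were edgeR 4.0.16 and DESeq2 1.42.0 on recovered reads, a block, pseudocounts, filters, scalings, each library left out, and region list, width, overlap and score. Libraries of 1 batch are paired by the header's batch number, and their deviations from the medium means correlated at 0.0126 over 11602 genes. P-values rest on the spread between 2 libraries a medium, moderated in each tool by the spread over all tested genes. Ratios have exact binomial intervals. PCR reads are not independent molecules, so these cover counting error at most.

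The members and lists were chosen with earlier results of these data known. Named genes were the 7 members, up to 4 tested genes of each list with the largest absolute log2 difference, and the 3 closest profiles. A promoter was 2 kb either side of a start, marked by 1 bp of overlap. Promoter sequences came from RefSeq, matched by symbol for all 7 members.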

Additional observations from a re-analysis of the deposited data

How the results depend on the processing

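None of the 5 tested members changed direction under the alternatives run, while Dnmt3b and Tet1 had a value only without the filter. Of 75 log2 differences, 12 newly passed the threshold and 63 did not cross it. The 63 include Dnmt3b and Tet1 without the filter, which were not tested in the main fit. The reported count of members called was 0 of 5 (limma, with 3 at an unadjusted p under 0.05, and 2 with the replicate block, median centring or quantile normalization). It was 2, Dnmt1 and Uhrf1, both lower, under quantile normalization, edgeR, edgeR with the replicate block and DESeq2. Leaving out 1 library gave 0 to 2: 2 without the ENRI library of batch 1 or of batch 2, 0 without either WENRC library. The lone library was then taken to vary as the other medium's pair does. The limma replicate block gave 0 (adjusted p 0.0850 and 0.0840), and edgeR with the block gave adjusted p 0.0418 and 0.0274. The block changed no call of a member in either tool. The median of -0.36 became -0.51 and -0.26 with pseudocounts of 0.1 and 1, -1.00 with a filter of 1 RPKM (3 members left), -0.21 with median centring, -0.14 with quantile normalization and -0.30 with DESeq2, and -0.40 to -0.32 with 1 library left out. A promoter of 5 kb marked 1 member, Tet1, in ENRI. The cause of these shifts was not tested. Over all genes, limma called 7 higher and 10 lower, the quantile fit 507 and 422, edgeR 650 and 329 (617 and 315 with the block), DESeq2 1707 and 1031, and the limma block 0, with 3839 at an unadjusted p under 0.05. Leaving out the ENRI library of batch 1 gave 1809 and 3985, that of batch 2 299 and 386, and either WENRC library 0. Depth limits Tet1 and Dnmt3b most, at 27 to 322 reads a library.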
